A study of Mus musculus with 6 samples.

Results

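Expression of 10 genes of DNA methylation and Polycomb repression was followed in jejunal intestinal epithelial cells (IEC) of control and Hdac1/2-deleted mice. The genes were taken by symbol from the deposited table, Dnmt1, Dnmt3a, Dnmt3b, Uhrf1, Tet1, Tet2, Tet3, Ezh1, Ezh2 and Suz12, and are 10 of its 19616 genes. All 10 were in the table and all 10 passed the filter on low counts. The control group held 3 wild-type mice, named C1, C3 and C3-3. The Hdac1/2-deleted group held 3 villin-Cre Hdac1-/-; Hdac2-/- mice, named H1, H5 and H9, in which floxed alleles of both deacetylase genes had been recombined by a Cre driven by the villin promoter, which is active in the intestinal epithelium. All mice were 3 months old, on a mixed C57BL/6J, 129SV and CD1 background, and 1 poly(A)-selected RNA library was made for each mouse from IEC enriched by EDTA treatment.

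Methylation of cytosine in CpG dinucleotides is written by the enzymes DNMT3A and DNMT3B on unmethylated DNA and copied after replication by DNMT1, which UHRF1 brings to hemimethylated sites. The TET dioxygenases oxidize methylcytosine and so begin its removal. Polycomb repressive complex 2 (PRC2) methylates lysine 27 of histone H3 through the catalytic subunit EZH2 or EZH1, and SUZ12 is a core subunit without which the complex is unstable. Polycomb repressive complex 1 (PRC1) ubiquitinates histone H2A. HDAC1 and HDAC2 remove acetyl groups from histones as parts of corepressor complexes. In the jejunal epithelium, dividing cells lie in the crypts and differentiated cells cover the villi.

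The promoters of the 10 genes separated those that held a recognition site of E2F, the transcription factor family of DNA replication genes, from those that did not. The sites searched were TTTGGCGC, TTTCCCGC, TTTGCCGC and TTTCGCGC, on both strands, in the window from 250 bases before to 50 bases after each RefSeq start (GRCm38.p6). At least 1 window held a site in 4 of the 10 genes, Dnmt1, Uhrf1, Ezh2 and Suz12, and in 704 of 27025 genes with a RefSeq promoter, or 2.60%. Of the proliferation genes listed for this comparison, 6 of 17 with a RefSeq promoter held one, or 35.3%. The sequences below are the windows of these 4 genes that hold a site and, for contrast, the window of Dnmt3b, which holds none. Capitals mark the E2F sites, and each sequence runs 5′ to 3′ on the strand of its gene.
Dnmt1, chr9:20952574-20952873, minus strand, 1 of its 3 RefSeq starts: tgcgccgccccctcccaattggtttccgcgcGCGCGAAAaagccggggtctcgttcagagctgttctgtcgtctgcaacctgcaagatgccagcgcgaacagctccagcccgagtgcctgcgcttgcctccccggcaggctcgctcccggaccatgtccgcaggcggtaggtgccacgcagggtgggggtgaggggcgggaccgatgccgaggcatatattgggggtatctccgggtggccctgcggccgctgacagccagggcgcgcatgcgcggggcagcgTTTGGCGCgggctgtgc
Uhrf1, chr17:56304063-56304362, plus strand, 1 of its 2 RefSeq starts: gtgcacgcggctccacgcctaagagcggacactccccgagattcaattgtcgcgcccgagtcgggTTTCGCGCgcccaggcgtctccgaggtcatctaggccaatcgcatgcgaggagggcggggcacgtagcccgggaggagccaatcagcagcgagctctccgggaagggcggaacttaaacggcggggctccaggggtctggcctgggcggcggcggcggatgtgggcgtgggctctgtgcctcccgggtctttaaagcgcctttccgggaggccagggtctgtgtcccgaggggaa
Ezh2, chr6:47594981-47595280, minus strand: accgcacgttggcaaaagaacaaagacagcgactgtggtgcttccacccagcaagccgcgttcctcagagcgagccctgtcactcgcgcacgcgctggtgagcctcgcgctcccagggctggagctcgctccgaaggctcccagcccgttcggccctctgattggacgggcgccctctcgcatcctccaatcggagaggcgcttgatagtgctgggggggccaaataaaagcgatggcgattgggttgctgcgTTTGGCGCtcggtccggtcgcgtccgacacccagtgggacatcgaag
Suz12, chr11:79992856-79993155, plus strand: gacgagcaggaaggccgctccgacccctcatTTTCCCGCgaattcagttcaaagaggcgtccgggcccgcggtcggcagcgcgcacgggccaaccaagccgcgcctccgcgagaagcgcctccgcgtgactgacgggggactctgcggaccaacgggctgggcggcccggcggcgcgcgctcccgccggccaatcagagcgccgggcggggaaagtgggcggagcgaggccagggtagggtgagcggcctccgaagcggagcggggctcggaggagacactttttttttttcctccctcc
Dnmt3b, chr2:153649199-153649498, plus strand: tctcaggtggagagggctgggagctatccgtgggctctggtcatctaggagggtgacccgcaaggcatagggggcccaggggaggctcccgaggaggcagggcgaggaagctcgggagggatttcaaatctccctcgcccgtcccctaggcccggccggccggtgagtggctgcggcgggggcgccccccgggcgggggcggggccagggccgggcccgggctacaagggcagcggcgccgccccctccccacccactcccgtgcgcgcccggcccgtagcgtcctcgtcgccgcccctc

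The Ezh2 site, TTTGGCGC, began 4 bases after the start. The Dnmt1 window held the same site 34 bases after the start and TTTCGCGC on the opposite strand at position -219, counted from the start. The Uhrf1 window held TTTCGCGC at position -185, and the Suz12 window held TTTCCCGC at position -219. A match is a description of the letters in the window. All 5 windows were rich in CpG, with 33 CpG in Dnmt1, 33 in Uhrf1, 31 in Ezh2, 41 in Suz12 and 30 in Dnmt3b, against a median of 7 over 32851 promoters. The Tet2 window held 57.

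Library totals ran from 58017009 to 65902344 counts for control and from 36111035 (H5) to 65230566 for Hdac1/2-deleted mice, and 3 counts, taken as the floor, correspond to 0.0405 to 0.0790 CPM on the TMM-scaled scale used here (counting error only). Hdac1 was decreased, with a log2 fold change of -3.43 ± 0.261 (SE, Benjamini-Hochberg adjusted p = 2.91e-05, quasi-likelihood test of edgeR). The counts of Hdac2 did not pass the same test, with a mean of 27.7 ± 4.72 CPM for control and 24.5 ± 2.70 for Hdac1/2-deleted mice (SD, n = 3), and whether they include reads of the deleted exons was not tested. The 7 epithelial markers, among them Epcam, Cdh1 and Krt8, summed to 11230 to 12900 CPM in control libraries and 9272 to 11470 in Hdac1/2-deleted libraries. Of these, Krt18 was increased (log2 fold change 1.02, adjusted p = 0.000591, edgeR) and Epcam decreased (-0.62, adjusted p = 0.0174). The call of Epcam was lost without H5 or C3-3, and the other 5 markers did not pass. C3 stood apart from the other 5 libraries in sex-linked transcripts, with 837 counts of Kdm5d and 13 of Xist against at most 5 and at least 2413. The control group therefore mixed mice that differ in these transcripts, and values without C3 are given beside the results for some of the gene groups.

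Of the 10 genes, expression of 2 was increased and of 2 decreased in Hdac1/2-deleted IEC, and 6 did not pass the test. The de novo methyltransferase genes Dnmt3a and Dnmt3b were increased 2-fold or more, and Tet1 and Ezh1 were decreased, Tet1 by 2-fold or more. The quasi-likelihood test of edgeR was fitted across all 15618 genes that passed the filter, p-values were adjusted over all of them (Benjamini-Hochberg), and the threshold was 0.05. CPM are counts per library total, scaled by the TMM method. Over all genes tested, 20.5% were increased and 20.3% decreased at that threshold, and 12.4% and 12.7% when a 2-fold change was also asked. The 10 genes thus stood near this background in each direction. Their median log2 fold change was 0.44, against -0.01 over all genes tested. Every Hdac1/2-deleted mouse lay above every control mouse for 3 genes (Dnmt3a, Dnmt3b and Suz12) and below for 2 (Tet1 and Ezh1), where 26.7% and 26.6% of all genes tested were separated in this way. Nothing in the labels gives a batch, and in bulk RNA fewer cells of a type and less RNA per cell cannot be told apart.

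**Figure D1:**
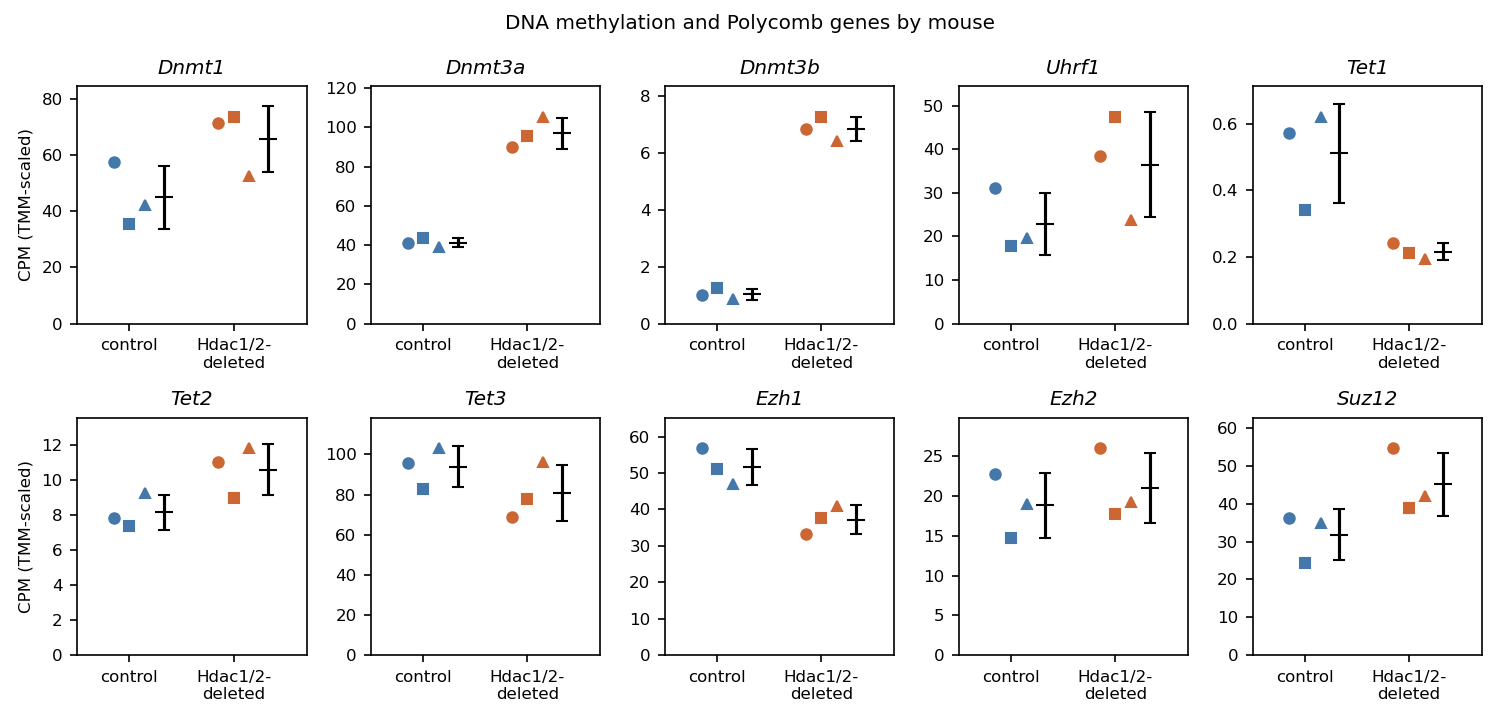
Expression of the 10 genes in each mouse, in CPM scaled by TMM (each vertical axis from 0), with control in blue and Hdac1/2-deleted in orange. Circles are C1 and H1, squares C3 and H5, triangles C3-3 and H9, and black bars are the mean ± SD of 3 mice. The groups are separated for Dnmt3a, Dnmt3b and Suz12, with Hdac1/2-deleted mice above, and for Tet1 and Ezh1, with Hdac1/2-deleted mice below.

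Dnmt3b (chromosome 2, 153649450 to 153687730, GRCm38) encodes a de novo methyltransferase best known from the early embryo. Its expression in CPM was 0.997 in C1, 1.24 in C3 and 0.847 in C3-3, and 6.84 in H1, 7.27 in H5 and 6.44 in H9. These values rest on 66, 69 and 45 counts in the control libraries and on 507, 276 and 396 in the Hdac1/2-deleted libraries. The 2 groups were far apart, and the 3 mice of each lay close together. The mean was 1.03 ± 0.20 CPM in control and 6.85 ± 0.415 in Hdac1/2-deleted IEC (SD, n = 3). The log2 fold change was 2.73 ± 0.262 (SE), with a 95% interval from 2.14 to 3.33 and an adjusted p of 9.02e-05 (edgeR).

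Dnmt3a (chromosome 12, 3806007 to 3914443) encodes the de novo methyltransferase of most adult tissues. Its expression was 41.0, 43.8 and 39.1 CPM in C1, C3 and C3-3, and 89.8, 95.8 and 105.3 in H1, H5 and H9. Every Hdac1/2-deleted mouse thus held more than 2 times the level of every control mouse. The mean rose from 41.3 ± 2.41 to 97.0 ± 7.79 CPM (SD, n = 3), a log2 fold change of 1.23 ± 0.129 (SE, 95% interval 0.94 to 1.52, adjusted p = 0.00014, edgeR). The annotation places 133 exon bases of Dnmt3aos on the opposite strand of Dnmt3a. Whether the reads were counted by strand is not given in the sources used here, so reads from the 2 transcripts cannot be told apart. Dnmt3a and Dnmt3b passed the test in all 13 alternative analyses, with log2 fold changes from 1.17 to 1.42 and from 2.62 to 2.93.

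The ratio of these methyltransferase transcripts also separated the groups. The log2 ratio of Dnmt3b to Dnmt3a counts within each library was -5.36, -5.14 and -5.53 in C1, C3 and C3-3, and -3.71, -3.72 and -4.03 in H1, H5 and H9. All 3 Hdac1/2-deleted mice lay above all 3 control mice. The ratio, as a geometric mean, was 0.0246 in control and 0.0707 in Hdac1/2-deleted IEC. The difference in log2 ratio was 1.52, with an exact two-sided permutation p of 0.10, the smallest that 3 mice against 3 allow (adjusted p = 0.133 over the 4 ratios examined). The share of gene pairs whose ratio separates the groups was not computed. Of single genes tested, 26.7% lay above and 26.6% below, so separation of a ratio is a description. Dnmt3b stayed the rarer transcript in every mouse.

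Dnmt1 (chromosome 9, 20907209 to 20959888) encodes the maintenance methyltransferase. Its expression was 57.3, 35.4 and 42.0 CPM in C1, C3 and C3-3, and 71.4, 73.5 and 52.3 in H1, H5 and H9. C1 lay above H9, so the groups overlapped. The mean was 44.9 ± 11.2 CPM in control and 65.7 ± 11.7 in Hdac1/2-deleted IEC (SD, n = 3). The log2 fold change was 0.55 ± 0.207 (SE, 95% interval 0.08 to 1.02), and the adjusted p of 0.0616 (edgeR) missed the threshold. This call rested on single mice, since the adjusted p was 0.0134 without C1 and 0.0387 without H9.

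Uhrf1 (chromosome 17, 56303321 to 56323486), the partner of Dnmt1 at replicated DNA, had the same order of mice within the control group. Its expression was 31.0, 17.8 and 19.6 CPM in C1, C3 and C3-3, and 38.4, 47.4 and 23.7 in H1, H5 and H9. Again C1 was the highest control mouse and H9 the lowest Hdac1/2-deleted mouse, and C1 lay above H9. The mean was 22.8 ± 7.16 and 36.5 ± 11.99 CPM (SD, n = 3). The log2 fold change was 0.68 ± 0.293 (SE, 95% interval 0.01 to 1.35, adjusted p = 0.0986, edgeR). The adjusted p was 0.0266 without C1 and 0.0261 without H9. The log2 ratio of Uhrf1 to Dnmt1 counts differed between groups by 0.10, with overlap between the groups (exact two-sided permutation p = 0.70, adjusted p = 0.70).

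Tet1 (chromosome 10, 62804570 to 62908996) was the rarest of the 10 transcripts. It was covered by 38, 19 and 33 counts in C1, C3 and C3-3, and by 18, 8 and 12 in H1, H5 and H9. In CPM these were 0.574, 0.342 and 0.621 in control, and 0.243, 0.211 and 0.195 in Hdac1/2-deleted mice. All Hdac1/2-deleted mice lay below all control mice, though at few counts. The mean was 0.512 ± 0.149 and 0.216 ± 0.0244 CPM (SD, n = 3), and the log2 fold change was -1.23 ± 0.426 (SE, 95% interval -2.20 to -0.27, adjusted p = 0.0451, edgeR). The call was close to the threshold. It was lost without H1 (adjusted p = 0.0952), H5 (0.101), H9 (0.135), C1 (0.116) or C3-3 (0.147), and in 4 further alternatives.

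Tet2 and Tet3 did not pass the test. Tet2 (chromosome 3, 133463679 to 133545139) was at 7.81, 7.38 and 9.28 CPM in C1, C3 and C3-3, and at 11.0, 8.95 and 11.8 in H1, H5 and H9, with a log2 fold change of 0.38 ± 0.198 (SE, adjusted p = 0.159, edgeR). Tet3 (chromosome 6, 83362373 to 83459084) was at 95.6, 82.9 and 103.0 CPM in control and at 68.7, 78.0 and 96.2 in Hdac1/2-deleted mice, with a log2 fold change of -0.21 ± 0.161 (SE, adjusted p = 0.322, edgeR). The groups overlapped for both genes, and the 95% intervals ran from -0.07 to 0.82 for Tet2 and from -0.58 to 0.15 for Tet3. Their ratio separated the groups, again a description without a share over other gene pairs. The log2 ratio of Tet3 to Tet2 counts was 3.61, 3.49 and 3.47 in C1, C3 and C3-3, and 2.64, 3.12 and 3.03 in H1, H5 and H9. The groups did not overlap, and the geometric mean ratio was 11.5 in control and 7.63 in Hdac1/2-deleted IEC (log2 difference -0.59, exact two-sided permutation p = 0.10, adjusted p = 0.133).

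Ezh1 (chromosome 11, 101191115 to 101226463) encodes the PRC2 catalytic subunit that prevails in non-dividing cells. Its expression was 56.7, 51.1 and 46.9 CPM in C1, C3 and C3-3, and 33.1, 37.6 and 40.9 in H1, H5 and H9. All Hdac1/2-deleted mice lay below all control mice. The mean fell from 51.6 ± 4.94 to 37.2 ± 3.92 CPM (SD, n = 3), a log2 fold change of -0.47 ± 0.142 (SE, 95% interval -0.79 to -0.15, adjusted p = 0.026, edgeR). Leaving out a mouse ended the call for H1 (adjusted p = 0.0834), H5 (0.0571), C1 (0.0793) and C3 (0.0561). With libraries scaled by their totals alone the log2 fold change was -0.29 (adjusted p = 0.166).

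Ezh2 (chromosome 6, 47530139 to 47595341), the catalytic subunit of dividing cells, did not pass the test. It was at 22.8, 14.7 and 19.04 CPM in C1, C3 and C3-3, and at 26.0, 17.7 and 19.2 in H1, H5 and H9. The groups overlapped almost fully. The log2 fold change was 0.16 ± 0.215 (SE, 95% interval -0.33 to 0.64, adjusted p = 0.597, edgeR), an interval that leaves out a 2-fold change in either direction. Without H1 it was -0.03 (adjusted p = 0.939). The log2 ratio of Ezh2 to Ezh1 counts separated the groups, at -1.31, -1.80 and -1.30 in C1, C3 and C3-3, and -0.35, -1.08 and -1.09 in H1, H5 and H9. The geometric mean ratio was 0.361 in control and 0.558 in Hdac1/2-deleted IEC, a log2 difference of 0.63 (exact two-sided permutation p = 0.10, adjusted p = 0.133). This separation, too, is a description without a share over other gene pairs. Ezh1 had the larger count in every mouse.

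Suz12 (chromosome 11, 79993106 to 80034123) was at 36.4, 24.2 and 35.04 CPM in C1, C3 and C3-3, and at 54.7, 39.0 and 42.0 in H1, H5 and H9. All Hdac1/2-deleted mice lay above all control mice, but H5 and C1 were close. The mean was 31.9 ± 6.65 and 45.2 ± 8.33 CPM (SD, n = 3), and the log2 fold change was 0.50 ± 0.198 (SE, 95% interval 0.06 to 0.95). The adjusted p of 0.0709 (edgeR) missed the threshold. Exons of Ezh2, Tet2 and Suz12 overlap a transcript of the opposite strand by 174, 43 and 178 bases.

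**Figure D2:**
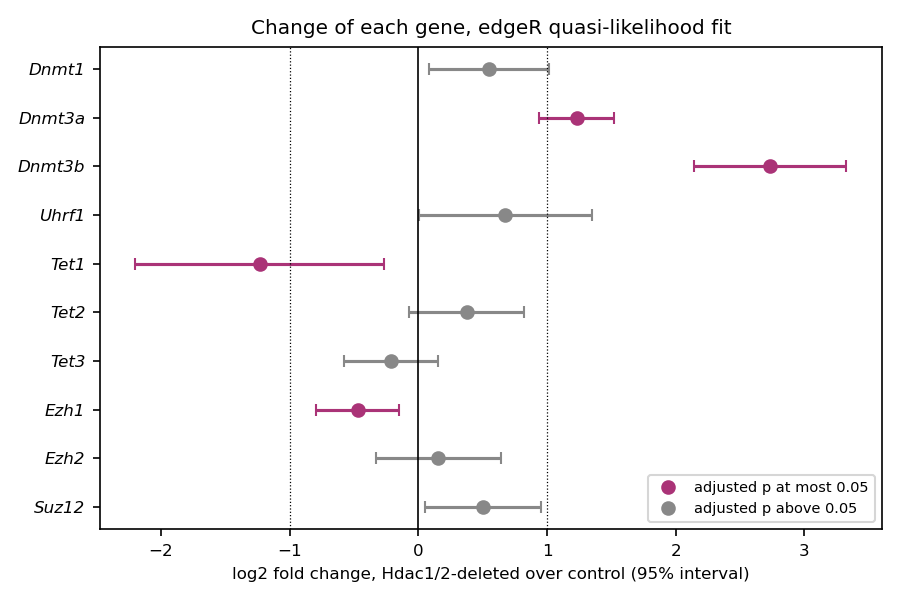
Log2 fold change of the 10 genes, Hdac1/2-deleted over control, with 95% intervals from the edgeR quasi-likelihood fit on 3 mice a group (purple, adjusted p of at most 0.05, grey, above). Dotted lines mark a 2-fold change. The interval of Dnmt3b lies wholly beyond 2-fold, and those of Dnmt3a, Tet1 and Ezh1, the other genes that passed, lie on one side of 0 and reach inside the 2-fold lines.

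Levels of the genes were compared per kilobase of merged exons. In control IEC the order was Ezh1 (6.93 ± 0.664 CPM per kb), Suz12 (6.45 ± 1.35), Dnmt1 (6.09 ± 1.52), Tet3 (5.62 ± 0.610) and Uhrf1 (5.35 ± 1.68), all SD with n = 3. The ranges of neighbours among these 5 genes overlapped. Ezh2 (2.82 ± 0.610) and Dnmt3a (2.48 ± 0.145) followed, below all 5 in every control mouse and not separated from each other. Tet2 (0.483 ± 0.0590), Dnmt3b (0.201 ± 0.0391) and Tet1 (0.0331 ± 0.00966) were lowest, each with a range apart from its neighbour. In Hdac1/2-deleted IEC, Suz12 (9.14 ± 1.69 CPM per kb), Dnmt1 (8.91 ± 1.58) and Uhrf1 (8.57 ± 2.82) stood first and Dnmt3a (5.83 ± 0.468) next, with overlapping neighbours down to Tet3 (4.85 ± 0.839). Dnmt3b (1.34 ± 0.0812) passed Tet2 (0.627 ± 0.0868), and their ranges did not overlap. Per kilobase of the longest transcript, Ezh2 stood higher, at 6.76 ± 1.46 in control and 7.53 ± 1.58 in Hdac1/2-deleted IEC, since its merged exons cover 6678 bases and its longest transcript 2787.

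Several of these genes are expressed with DNA replication, so proliferation genes were measured beside them. Of 21 proliferation genes, 5 were increased and the other 16 did not pass (edgeR, adjusted p of at most 0.05), and the list had a median of 0.35 on the log2 scale. The increased genes were E2f2 (1.95), Rrm2 (1.25), Mcm2 (1.02), Foxm1 (0.76) and Mcm6 (0.51), while Mki67 (0.35) and Top2a (-0.12) did not pass. The count of increased proliferation genes was 2 without C3, C3-3 or H1, 3 without H5, 6 without C1 and 7 without H9. Without H1, 1 gene of the list was decreased. The mean log2 CPM over the 21 genes was 4.82, 4.11 and 4.24 in C1, C3 and C3-3, and 5.06, 5.05 and 4.29 in H1, H5 and H9. C1 was thus the highest control mouse and H9 the lowest Hdac1/2-deleted mouse, as for Dnmt1 and Uhrf1. The group means were 4.39 ± 0.379 and 4.798 ± 0.445 (SD, n = 3, exact two-sided permutation p = 0.20), and the part of proliferation in the values of Dnmt1 and Uhrf1 was not tested.

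Relative to the mean of the proliferation genes, 4 of the 10 genes separated the groups. The share of all genes tested that separated on this scale was not computed. On the CPM scale 26.7% lay above and 26.6% below, so the count of 4 is a description. The log2 difference between groups was 2.30 for Dnmt3b, 0.82 for Dnmt3a, 0.25 for Uhrf1 and -1.50 for Tet1, each without overlap and with an exact two-sided permutation p of 0.10 (adjusted p = 0.25 over the 10 genes). For Uhrf1 the relative log2 level was 0.14, 0.05 and 0.06 in C1, C3 and C3-3, and 0.20, 0.52 and 0.28 in H1, H5 and H9. These groups lay close to each other but apart, unlike the CPM values of the same gene. The groups overlapped for Dnmt1 (0.15), Suz12 (0.10), Tet2 (-0.04), Ezh2 (-0.25), Tet3 (-0.63) and Ezh1 (-0.88).

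**Figure D3:**
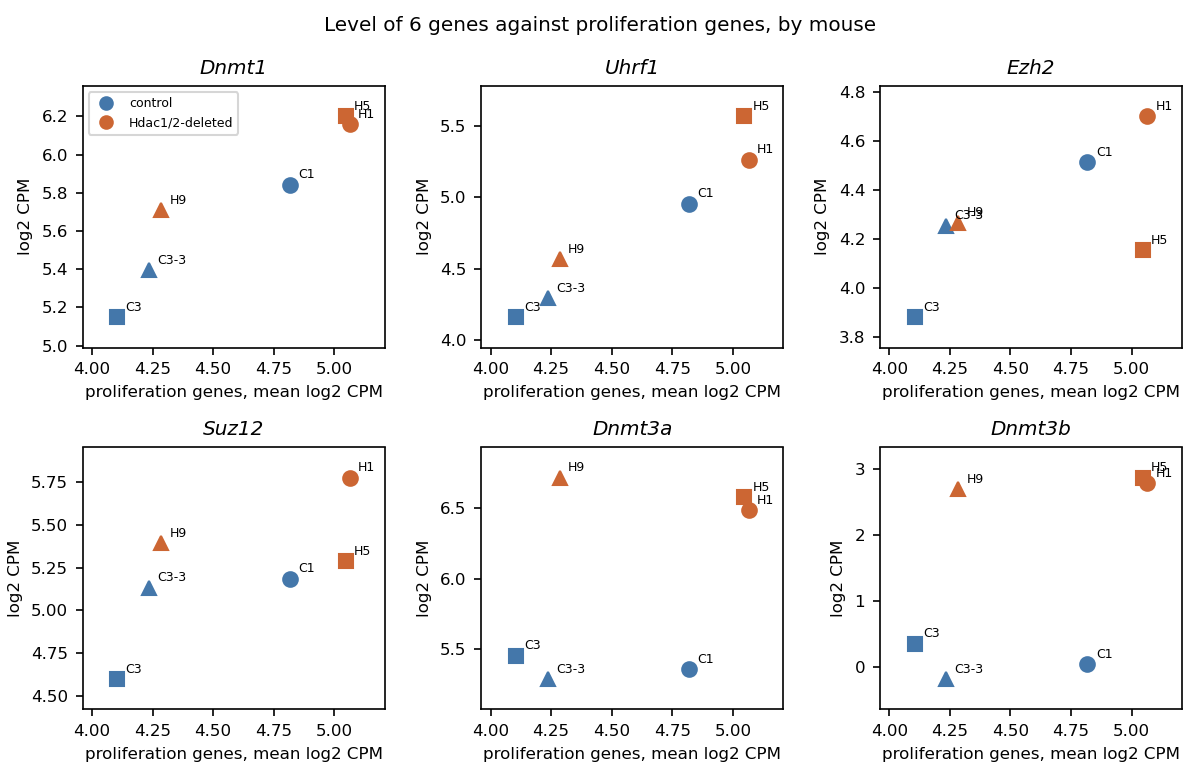
Log2 CPM of 6 genes (vertical axes) against the mean log2 CPM of 21 proliferation genes (horizontal axes), 1 point per mouse, with control in blue and Hdac1/2-deleted in orange. Dnmt1 and Uhrf1 are ordered much as the proliferation genes are, whereas for Dnmt3a and Dnmt3b the 3 Hdac1/2-deleted mice lie far above the controls, H9 with its low proliferation mean of 4.29 included.

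Genes whose pattern over the 6 libraries was most like that of each of the 10 were named by the Pearson r of log2 CPM, as a description. For Dnmt1 they were Kifc5b, Exosc2 and Ube2s (r from 0.992 to 0.995), for Uhrf1 Sf3b3, Gtse1 and Parp1 (0.996 to 0.997), and for Ezh2 Eri2, Gnpnat1 and Ccl9 (0.991 to 0.999). For Dnmt3a they were Clasp2, Surf1 and Gcdh, and for Dnmt3b Xylb, Dcaf4 and Ror2, each at 0.999. Suz12 was nearest to Exoc5, Eea1 and Kif4 (0.987 to 0.992), and Ezh1 to Marf1, Mb21d2 and Snx20 (0.981 to 0.994). Tet1 was nearest to Klf15, Arl14ep and Cipc (0.991 to 0.996), Tet2 to Naip6, Dgke and Dnajc5 (0.988 to 0.989), and Tet3 to Ppp1r15b, Perp and Fam214a (0.976 to 0.998). With 6 points that fall into 2 groups, a high r is easily reached.

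Genes of the wider DNA methylation machinery changed in both directions, as did all genes tested (20.5% increased and 20.3% decreased). These shares are the background for the counts in this and the other gene lists. Of 8 other DNA methylation genes, 1 was increased and 4 were decreased (edgeR, adjusted p of at most 0.05), and their median was -0.34 on the log2 scale, against -0.01 over all genes tested. The decreased genes were Trdmt1 (-2.10 ± 0.462, SE), a methyltransferase that acts on tRNA, Cdca7 (-1.18 ± 0.304), a partner of the remodeler HELLS, Uhrf2 (-0.94 ± 0.219), the paralog of Uhrf1, and Ahcy (-0.56 ± 0.158), which clears the product of methyl transfer. Uhrf2 was at 24.1, 17.95 and 14.1 CPM in C1, C3 and C3-3 and at 10.8, 9.74 and 8.86 in H1, H5 and H9, and each Hdac1/2-deleted mouse lay below each control mouse. Dppa3, a maternal factor that opposes UHRF1, was increased (1.60 ± 0.542, adjusted p = 0.0412, edgeR) on 12 counts in all control and 38 in all Hdac1/2-deleted libraries, and lost the call whenever a mouse was left out. Of 8 readers of methylated CpG, Mbd3 (1.36 ± 0.147) and Mbd2 (0.78 ± 0.136), both of NuRD-type complexes that contain HDAC1 and HDAC2, were increased, and 2 were decreased, among them Zbtb38 (-1.08 ± 0.152). Of 9 genes that act with the TET enzymes or in base excision, 2 were increased, Cxxc5 (2.16 ± 0.244) and Apex1 (1.52 ± 0.202), and the other 7 did not pass. Apex1 shares 877 exon bases with Pip4p1 of the opposite strand.

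Among the other PRC2 genes an accessory subunit changed most. Of 10 genes, 3 were increased and the other 7 did not pass, and their median was 0.28 on the log2 scale (0.11 without C3 or without H1). The largest was E130012A19Rik, the symbol under which the table lists Epop, whose product joins PRC2 and elongin. It had 28, 15 and 9 counts in C1, C3 and C3-3 and 2860, 2398 and 2772 in H1, H5 and H9, or 0.287 ± 0.128 and 48.9 ± 12.7 CPM (SD, n = 3). The transcript was thus scarce in every control mouse and abundant in every Hdac1/2-deleted mouse, and the log2 fold change was 7.37 ± 0.354 (SE, adjusted p = 3.84e-06, edgeR). Phf19 (1.78 ± 0.332, adjusted p = 0.00278), which guides PRC2 to chromatin, and Rbbp7 (1.0 ± 0.154, adjusted p = 0.00104), a histone chaperone shared with HDAC complexes, were also increased. Eed, which encodes another core subunit, and Jarid2 (0.44 ± 0.156, adjusted p = 0.0508) did not pass.

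Of 24 PRC1 genes, 9 were increased and 4 decreased (edgeR, adjusted p of at most 0.05), and the median over the list was 0.36 on the log2 scale. Pcgf2 (1.66 ± 0.164), Bcorl1 (1.63 ± 0.218) and Yaf2 (1.13 ± 0.208) were increased 2-fold or more. The alternative subunits Pcgf2 and Bmi1, which is also Pcgf4, went in opposite directions. Pcgf2 was at 11.5, 12.5 and 10.8 CPM in C1, C3 and C3-3 and at 33.95, 32.99 and 43.2 in H1, H5 and H9. Bmi1 was at 7.34, 6.50 and 7.25 CPM in control and at 5.02, 3.69 and 2.99 in Hdac1/2-deleted mice (-0.85 ± 0.252, adjusted p = 0.0246), a call that held in 2 of 6 fits with 1 mouse left out. Rnf2, the H2A ubiquitin ligase, was increased (0.998 ± 0.166, adjusted p = 0.00155), and Pcgf1 (-0.85 ± 0.276, adjusted p = 0.035) was decreased, a call that held in 1 of 6 fits with 1 mouse left out. Without C3, 7 PRC1 genes were increased and 3 decreased, and the count of decreased genes was 2 without H5, H9 or C1 and 1 without C3-3. Scaled by library totals alone, 12 PRC1 genes were increased and the decreased calls were lost. Of 8 H3K27 demethylase and H2A deubiquitinase genes, Bap1 (0.51 ± 0.143) was increased and Usp16 (-0.60 ± 0.156) decreased. The call of Bap1 was lost without C3, C3-3 or H1, and that of Usp16 without H9.

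**Figure D4:**
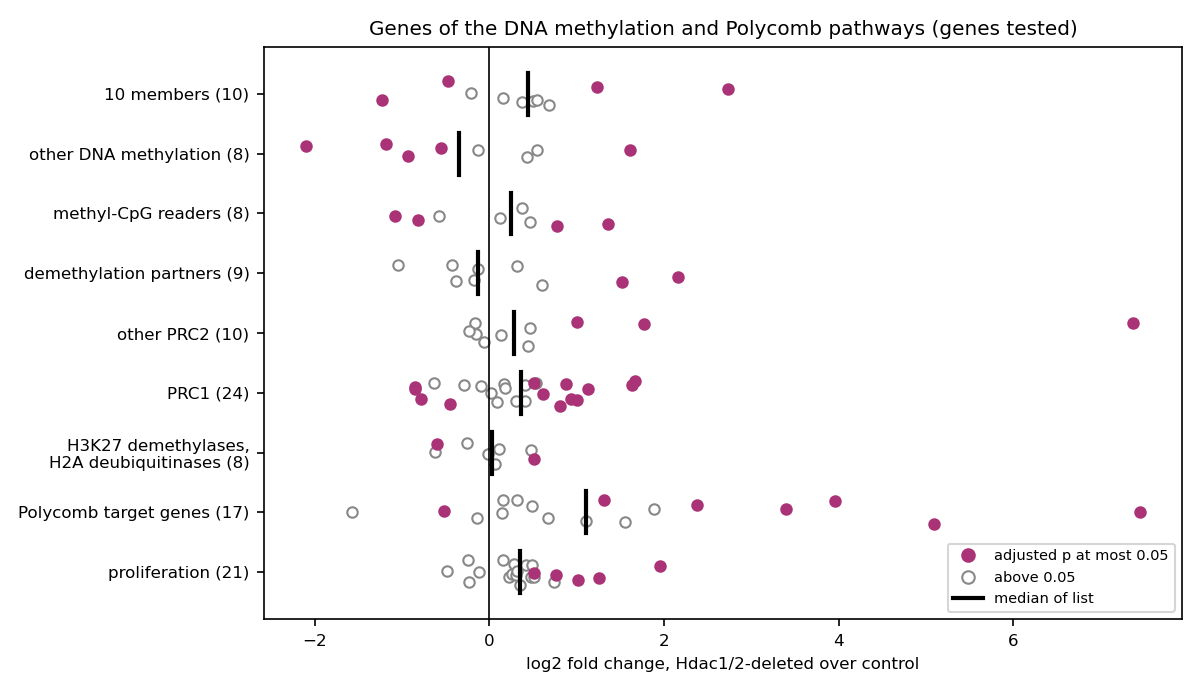
Log2 fold change, Hdac1/2-deleted over control, of each tested gene of the 10 genes and 8 further lists, 1 point per gene with random vertical spread (filled, adjusted p of at most 0.05, open, above). Black bars are list medians, from -0.34 for other DNA methylation genes to 1.11 for Polycomb target genes. The rightmost points are Epop among PRC2 genes and Hoxb9 among target genes. Hoxb9 had 0 counts in the control libraries, so its position depends on the prior count (its lower bound was 4.28).

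Known targets of these systems were read in the same libraries. Of 40 classical Polycomb target genes, the Hox clusters with Cdkn2a and Cdkn2b, 23 were in the table and 17 passed the filter, and of these 6 were increased and 1 decreased. Without C3, 5 were increased and 2 decreased. The median was 1.11 on the log2 scale, 0.79 with limma-voom, 0.65 without H5 and 1.39 without C1. With at least 10 counts in every library, 3 of these genes remained, 1 increased and 1 decreased, with a median of 0.16. Cdkn2a, which encodes the cell cycle inhibitors of the Ink4a/Arf locus, had 2, 6 and 8 counts in C1, C3 and C3-3 and 124, 76 and 50 in H1, H5 and H9 (log2 fold change 3.96 ± 0.608, SE, adjusted p = 0.00102, edgeR). Hoxb8 (3.39 ± 0.528), Hoxa5 (2.38 ± 0.493) and Hoxa3 (1.31 ± 0.42) were increased, all still under 4 CPM, and Hoxa3 lost its call without C3, C3-3, H1 or H5. Hoxb9 had 0 counts in the control libraries and 58 in all Hdac1/2-deleted libraries, at least 19.5-fold higher against a floor of 3 counts over the group. Cdkn2b, in contrast, was decreased from 91.0 ± 8.88 to 63.4 ± 1.48 CPM (-0.52 ± 0.128, adjusted p = 0.0105). A gene that passed the filter only through the group where it is high had to differ. The count and the median over the 17 genes, and the adjusted p of such a gene, are therefore descriptions.

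**Figure D5:**
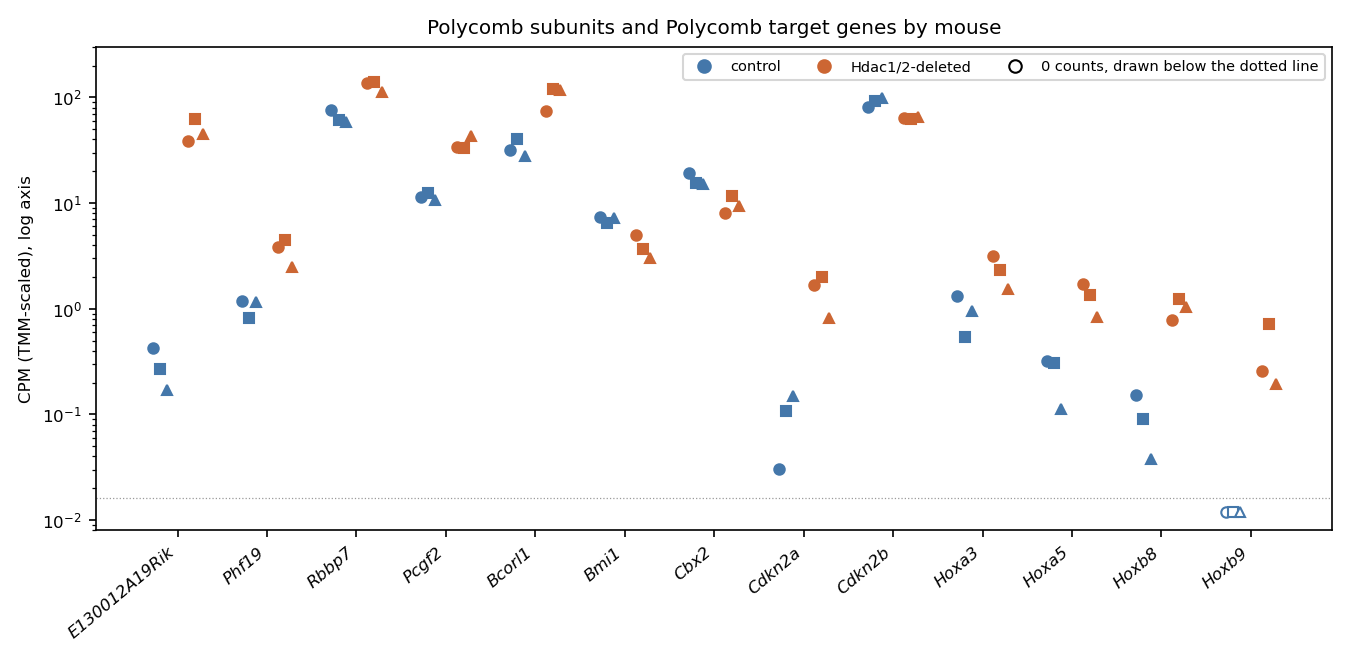
CPM on a log axis of 7 Polycomb subunit genes and 6 Polycomb target genes in each mouse, with control in blue and Hdac1/2-deleted in orange, and libraries with 0 counts drawn open below the dotted line. Epop (E130012A19Rik) rises from under 1 CPM to above 30 CPM, whereas Cdkn2a and the 4 Hox genes shown remain under 4 CPM.

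Of 18 germline genes that promoter methylation keeps silent in somatic tissue, 4 were in the table and 2 passed the filter, and neither differed at the threshold (edgeR). Asz1, which did not pass the filter, had 0 counts in the control libraries and 6, 2 and 5 in H1, H5 and H9. Slc25a31, also below the filter, had 1, 10 and 0 counts in C1, C3 and C3-3 and 1, 0 and 1 in H1, H5 and H9. The 2 tested genes, Tdrd1 (-0.25) and Brdt (-0.93), had negative log2 fold changes.

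Markers of enterocytes and of other cells moved with genotype and are given beside these results. The 10 enterocyte markers summed to 86970 to 99810 CPM in control and 35540 to 48520 in Hdac1/2-deleted libraries. The largest parts of the control sum were Apoa4 (mean 38390 CPM in control, 6283 in Hdac1/2-deleted) and Apoa1 (22710 and 13220), while Slc5a1 was at 3687 and 3640. Of the 10 enterocyte markers, 5 were decreased, among them Apoa4 (log2 fold change -2.61), Fabp2 (-2.13) and Lct (-1.99), and Alpi (1.20) was increased. Without H5, C1 or C3-3, 3 were decreased, and the call of Alpi was lost without H1, H5 or C3-3. The 8 crypt stem cell markers summed to 399.5 to 537.9 CPM in control and 153.0 to 262.6 in Hdac1/2-deleted libraries, with 3 of the 8, Olfm4, Lgr5 and Slc12a2, decreased. Olfm4 alone had a mean of 273 CPM in control and 91.4 in Hdac1/2-deleted libraries. Without C3, 4 of the 8 were decreased. The 10 T cell and intraepithelial lymphocyte markers summed to 149.5 to 562.9 CPM in control and 79.6 to 176.3 in Hdac1/2-deleted libraries, and C1 was the lowest control. Of these 10, Cd8a and Cd3g were decreased, a count that rested on single libraries and on the test, with 8 decreased without C1, 7 with DESeq2, 3 without H9, 1 without H5, and both calls lost without C3, C3-3 or H1 and with limma-voom. The stromal and endothelial markers summed to 5.04 to 26.0 CPM in control and 4.32 to 10.1 in Hdac1/2-deleted libraries. Of these, Acta2 (log2 fold change -6.74, with 827, 616 and 32 counts in C1, C3 and C3-3 against 6, 1 and 6 in H1, H5 and H9) and Dcn (-1.48) were decreased, the first call lost with limma-voom and the second without H1, H5 or C1. The myeloid markers summed to 12.7 to 22.8 and 19.9 to 35.3, with Csf1r increased. The B and plasma cell markers summed to 5.93 to 61.1 and 42.6 to 60.3 CPM, of which Cd79b alone gave 27.2 to 40.7 CPM in Hdac1/2-deleted libraries. No enterocyte, T cell, myeloid or stromal marker was at 0 in a library, and the part of these cell types in the results for the 10 genes was not tested. With each mouse left out in turn, the log2 fold change of Dnmt3a was 1.17 to 1.29 and that of Dnmt3b 2.62 to 2.89.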

How the data were processed

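The authors deposited 1 table of 19616 genes, with raw counts of reads per gene for each of 6 mice, a score per mouse that lies near the count times 1 factor per sample, and the results of their own comparison (log2 fold change, mean log2 CPM and DESeq and edgeR p-values), which were not used. The paper's methods state alignment with STAR to GRCm38, whereas the submitters' processing notes list mm9 with STAR 2.4.0f1 and bcl2fastq 1.8.4. The counting program, its annotation and its use of strand are not given in the sources used here. Positions and lengths came from GENCODE release M21.

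Tests on the counts used R 4.3.3 with edgeR 4.0.16, limma 3.58.1 and, as an alternative, DESeq2 1.42.0 (filterByExpr, which kept 15618 genes, TMM factors from 0.892 to 1.14, robust quasi-likelihood fit without covariates, prior count 0.125). Benjamini-Hochberg adjustment covered every gene tested, at a threshold of 0.05. Levels relative to proliferation genes used log2 CPM with a prior count of 2. They and the ratios between genes were compared by exact two-sided permutation tests over the 20 assignments of 6 mice. Alternatives are given in the closing section. The steps were tested on simulated data. The 10 genes and the gene lists were chosen with earlier results of these data known. Named genes were the 10, Hdac1 and Hdac2, in each list every gene past the threshold with a 2-fold change and otherwise the 2 largest increases and decreases, and for each of the 10 the 3 genes of highest r. Mki67, Top2a, Jarid2, Eed, Asz1, Slc25a31, Tdrd1, Brdt, Foxm1, Mcm6, Rnf2 and the marker genes were named after their values were seen. The labels pair no mice. Some genes of the lists enter the counts but are not reported here by name. The edgeR p-values weigh the difference between groups against the spread between mice, which the fit moderates across all genes tested. The permutation p-values compare the observed difference with those of the 20 assignments. Figures were drawn with matplotlib 3.10.9.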

Additional observations from a re-analysis of the deposited data

How the results depend on the processing

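Normalization (DESeq2 size factors, library totals), test (DESeq2, limma-voom, non-robust quasi-likelihood), filter (none, at least 10 counts in every library) and mice (each left out) were varied, and Dnmt3a and Dnmt3b passed in all 13. The count of increased genes among the 10 was 4 with library totals, which also called Dnmt1 and Suz12, and 2 to 4 with a mouse left out, against 2. The count of decreased genes was 0 with library totals, 1 with DESeq2, limma-voom, no filter or at least 10 counts, and 0 to 1 with a mouse left out, against 2. With a 2-fold change as well it was 0 in those same 5 analyses and 0 to 1 with a mouse left out, against 1. Tet1 could not be tested with at least 10 counts in every library. Its adjusted p was 0.0889 with library totals, 0.086 with DESeq2, 0.0554 with limma-voom and 0.062 without a filter. Dnmt1 passed with library totals (adjusted p = 0.0398) and DESeq2 (0.0433), and Suz12 with library totals (0.0416). With a mouse left out, the log2 fold change of Ezh2 ran from -0.026 (without H1, adjusted p = 0.939) to 0.323 (without C1). Library totals moved the median log2 fold change of all genes to 0.18 and the calls from 3198 increased and 3168 decreased to 4024 and 2301. With the longest transcript in place of merged exons, levels per kilobase rose most for Ezh2. No paired analysis was possible because the names of the 2 groups share only the number 1 (C1 and H1), and the labels tie it to no pairing. At 8 to 38 counts per library, depth limits Tet1. Among named pathway genes, Ahcy, Pcgf1, Bmi1, Usp16 and Cdkn2b lost their calls with library totals and with at least 1 mouse left out. For other differences the cause was not tested.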

Other observations

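Epop (E130012A19Rik, chromosome 11, 97627389 to 97629702) and Pcgf2 (97688823 to 97700497) lie near each other on the minus strand of GRCm38, and both were increased in Hdac1/2-deleted IEC, by 7.37 and 1.66 on the log2 scale. Both passed the edgeR quasi-likelihood test in every fit with 1 mouse left out, with log2 fold changes from 7.13 to 7.79 for Epop and from 1.53 to 1.74 for Pcgf2. The deposited table also listed Hoxa13, a gene of the posterior gut that did not pass the filter, with 0 counts in the control libraries and 9, 15 and 4 in H1, H5 and H9. Hoxb2 went the other way at low counts, with 49, 10 and 20 in C1, C3 and C3-3 and 9, 1 and 1 in H1, H5 and H9.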
